A study of Mus musculus with 2 samples.

Results

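The mir-30 family comprises 7 annotated mouse miRNA genes, Mir30a, Mir30b, Mir30c-1, Mir30c-2, Mir30d, Mir30e and Mir30f, of 2202 miRNA genes counted in hippocampal tissue. The 7 genes were taken by their GENCODE M21 symbols. The rule that lists them uses no measured value, but they were chosen with earlier results of these data known. MicroRNA sequencing of total RNA was done on 2 libraries, replicate 2 and replicate 1, which form 1 group. Both came from male B6CASTF1/J mice, an F1 hybrid of the C57BL/6 and CAST backgrounds, aged 18 to 20 months, with no treatment named in the labels. The labels call them biological replicates, with a tissue entry for each but the same donor entry for both. Whether they came from separate mice is not given in the sources used here, so differences between them may be technical. Reads were counted on the mm10 sequence, and the values do not separate the CAST from the C57BL/6 allele. Whether CAST variants changed the mapping of reads was not tested.

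MicroRNAs are short RNAs that guide Argonaute proteins to messenger RNAs, mainly through pairing of bases 2 to 8, the seed, and lower the stability or translation of those messages. Family members that share a seed can bind overlapping sets of messages. Each miRNA gene encodes a hairpin from whose 5′ and 3′ arms the mature strands (5p and 3p) are cut. The mir-30 family is known for repressing Beclin 1, a protein of autophagy, and brain-derived neurotrophic factor, in studies that used human cells or tissue.

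RefSeq (GRCm38.p6) gave mature sequences for 5 of the 7 genes. Mir30b and Mir30d had none there, so their seeds were not compared and they are missing from the seed counts below. The sequences are shown so that the seeds can be compared and because copies that match exactly cannot be told apart by a read. The 5p strands of Mir30a, Mir30e, Mir30c-1 and Mir30c-2 carry the seed GUAAACA, in capitals:
miR-30a-5p: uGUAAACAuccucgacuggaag
miR-30e-5p: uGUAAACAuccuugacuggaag
miR-30c-5p (Mir30c-1 and Mir30c-2): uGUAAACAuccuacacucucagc
The seed of the mature strand annotated for Mir30f is UAAACAU, shifted by 1 base relative to the others:
miR-30f: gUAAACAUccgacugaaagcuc
Of 1679 mature miRNA names in the RefSeq table, 4 had the seed GUAAACA, and the only one outside the family was miR-384-5p of Mir384:
miR-384-5p: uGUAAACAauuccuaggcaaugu

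Mature strands of Mir30a and Mir30e differ by 1 base on each arm. With positions counted from 1 at the 5′ end and Mir30a given before Mir30e, the change is C13U in the 5p strand and G18A in the 3p strand, outside the seed in both. The 3p strands of Mir30c-1 and Mir30c-2 differ at 3 of 22 positions (G9A, U12C and C22U, Mir30c-1 before Mir30c-2). Their seed, UGGGAGA, differs from the UUUCAGU of the Mir30a and Mir30e 3p strands:
miR-30a-3p: cUUUCAGUcggauguuugcagc
miR-30e-3p: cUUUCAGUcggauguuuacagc
miR-30c-1-3p: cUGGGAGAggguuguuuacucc
miR-30c-2-3p: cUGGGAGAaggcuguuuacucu
The deposited tables count reads per gene, so the 5p and 3p strands of a hairpin are summed in every value below.

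The 6 genes other than Mir30f lie in pairs at 3 loci (mm10). On chromosome 1, Mir30a (23272269 to 23272339, plus strand) overlaps no other annotated gene, and Mir30c-2 (23291701 to 23291784) lies 19361 bases downstream within an exon of Gm27028, a long non-coding RNA. On chromosome 15, minus strand, Mir30d (68341208 to 68341289) lies within an exon of Gm20732, also a long non-coding RNA, and shares 9 bases with an exon of Gm37296. Mir30b (68337415 to 68337510) is 3697 bases further downstream, and 16 of its bases fall in an exon of Gm26621. On chromosome 4, minus strand, Mir30e (120772606 to 120772697) and Mir30c-1 (120769534 to 120769622) lie 2983 bases apart in introns of Nfyc, which encodes a subunit of the transcription factor NF-Y. Mir30f is annotated over exactly the bases of Mir30e, on the plus strand.

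Replicate 2 held 5598792 counts on the sense strand of miRNA genes, and replicate 1 held 3758318. Reads that mapped to several places made up 46.66% and 51.52% of all reads in replicates 2 and 1 and enter no gene. A level is a gene's sense count divided by the library's total of such counts and multiplied by 1000000 (CPM). Intervals are 95% Wilson intervals. They and the limits for a count of 0 hold counting error alone and treat reads as independent. Amplified reads with no molecular tag are not independent, so these ranges may be too narrow. Of 12 miRNA genes listed for neurons, 8 reached 10 counts in each library, and the list summed to 52470 and 50948 CPM in replicates 2 and 1. The exceptions were Mir9-2 and the 3 Mir124a genes, all at 7 counts or fewer, with Mir124a-3 at 0 in both. By their names these genes have copies at several loci, and a read that fits several copies enters no gene. Their low counts are therefore not taken as a tissue level of miR-9 or miR-124. On the same list, Mir128-1, Mir128-2, Mir138-1, Mir138-2, Mir9-1 and Mir9-3 also have numbered copies and were detected. They ranged from Mir9-1, at 42 and 82 counts in replicates 2 and 1, to Mir128-1, at 80802 and 45795. The part that unassigned reads play was not tested. Lists for other cells of the tissue summed to 9710 and 6092 CPM for oligodendrocytes, 16510 and 22045 CPM for endothelial and mural cells, 762 and 812 CPM for microglia and leukocytes, and 1495 and 851 CPM for choroid plexus. Erythroid genes summed to 77.0 and 52.4 CPM, muscle genes to 79.7 and 52.2 CPM with 4 of 5 at 0, and the liver gene Mir122 had 47.5 and 23.95 CPM.

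Of the 7 mir-30 genes, 6 were detected, taken as at least 10 counts in both libraries, beside 384 detected genes of all 2202. Together they held 109022 counts in replicate 2 and 70839 in replicate 1, or 19472 and 18849 CPM (mean 19161 ± 441 CPM, SD, n = 2). The family thus made up 1.95% and 1.88% of the counted reads. The levels fell into a high group of 3 genes, Mir30e, Mir30a and Mir30d, and a low group of 3, Mir30c-2, Mir30c-1 and Mir30b. Every high gene was above every low gene in both libraries. Mir30d, the lowest of the high genes, exceeded Mir30c-2, the highest of the low ones, 26.1-fold in replicate 2 and 28.7-fold in replicate 1.

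Mir30e, in the Nfyc intron, had 47522 counts in replicate 2 and 24144 in replicate 1, or 8488 and 6424 CPM. Its mean of 7456 ± 1459 CPM (SD, n = 2) placed it at rank 27 of all miRNA genes. Mir30a had 30964 and 24261 counts in replicates 2 and 1, or 5530 and 6455 CPM, with a mean of 5993 ± 654 CPM and rank 35. Mir30d had 27906 and 20746 counts, or 4984 and 5520 CPM in replicates 2 and 1, with a mean of 5252 ± 379 CPM and rank 39.

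The order of these 3 genes was not the same in both libraries. In replicate 2, Mir30e stood above Mir30a by 1.53-fold (interval 1.51 to 1.56), whereas in replicate 1 the ratio was 0.995 (interval 0.978 to 1.01). Mir30a exceeded Mir30d in both, by 1.11-fold (1.09 to 1.13) in replicate 2 and 1.17-fold (1.15 to 1.19) in replicate 1. The ranges of Mir30e (6424 to 8488 CPM) and Mir30a (5530 to 6455 CPM) overlapped, and Mir30a and Mir30d met between 5530 and 5520 CPM without overlap. So the means of Mir30e and Mir30a do not differ beyond the spread between libraries. A small RNA read covers a mature strand and not a hairpin, so levels were not divided by length. Per base of hairpin, the mean levels were 81.0 CPM for Mir30e, 84.4 CPM for Mir30a and 64.05 CPM for Mir30d, which puts Mir30a before Mir30e.

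In the low group, Mir30c-2 had 1071 counts in replicate 2 and 722 in replicate 1, or 191 and 192 CPM (mean 191.7 ± 0.577 CPM, SD, n = 2, rank 162). Mir30c-1 had 812 and 479 counts, or 145.0 and 127 CPM in replicates 2 and 1 (mean 136 ± 12.4 CPM, rank 180). Mir30b had 747 and 487 counts, or 133 and 129.6 CPM in replicates 2 and 1 (mean 131.5 ± 2.72 CPM, rank 181). By assigned counts, Mir30c-2 lay above Mir30c-1 and Mir30b in both libraries. Mir30c-1 and Mir30b overlapped, with a ratio of 1.09 (interval 0.984 to 1.20) in replicate 2 and 0.984 (0.867 to 1.12) in replicate 1, so they were not separated.

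**Figure D1:**
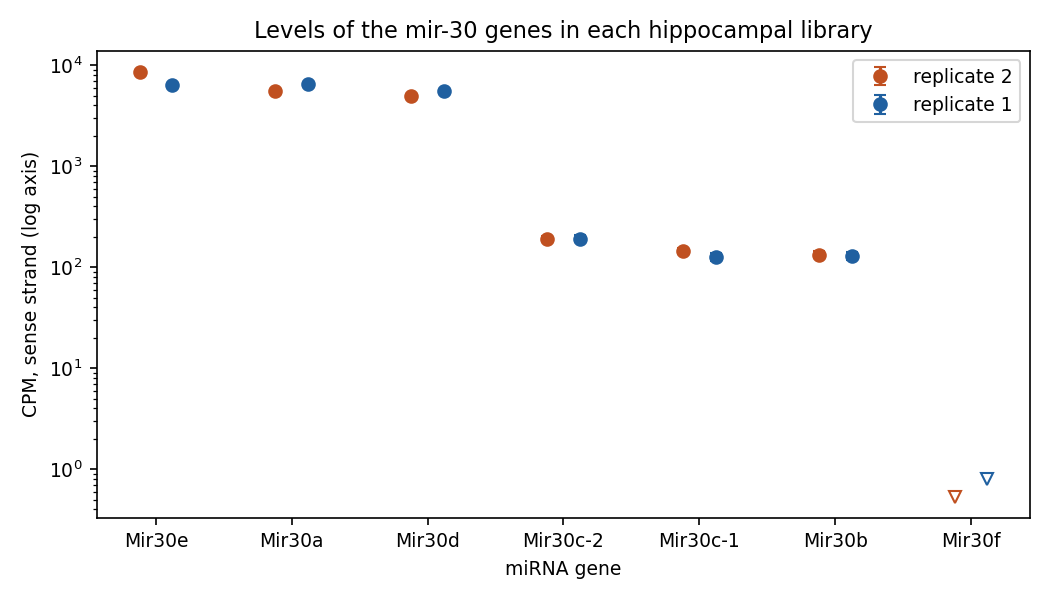
Level of each mir-30 gene in CPM on a log axis, with a point per library (replicate 2 left, replicate 1 right) and 95% Wilson intervals that are mostly smaller than the points. Mir30e, Mir30a and Mir30d lie between 4984 and 8488 CPM, Mir30c-2, Mir30c-1 and Mir30b between 127 and 192 CPM, and the open triangles mark the limits of 0.536 and 0.798 CPM that a count of 0 allows for Mir30f.

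Mir384, which shares the seed GUAAACA and lies on chromosome X, was named from its sequence and is no member of the family. Its 5p strand is known from rat hippocampus for a part in long-lasting synaptic potentiation. Mir384 had 2727 counts in replicate 2 and 1753 in replicate 1, or 487 and 466 CPM. By assigned counts, it thus stood between the high and the low group of mir-30 genes. Reads of the 5p strand shared by Mir30c-1 and Mir30c-2 fit both genes and enter no gene. The counts therefore give no order of miR-384-5p and miR-30c-5p in the tissue. The seed of the Mir30c 3p strands was shared by Mir6958, with 15 and 3 counts in replicates 2 and 1.

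**Figure D2:**
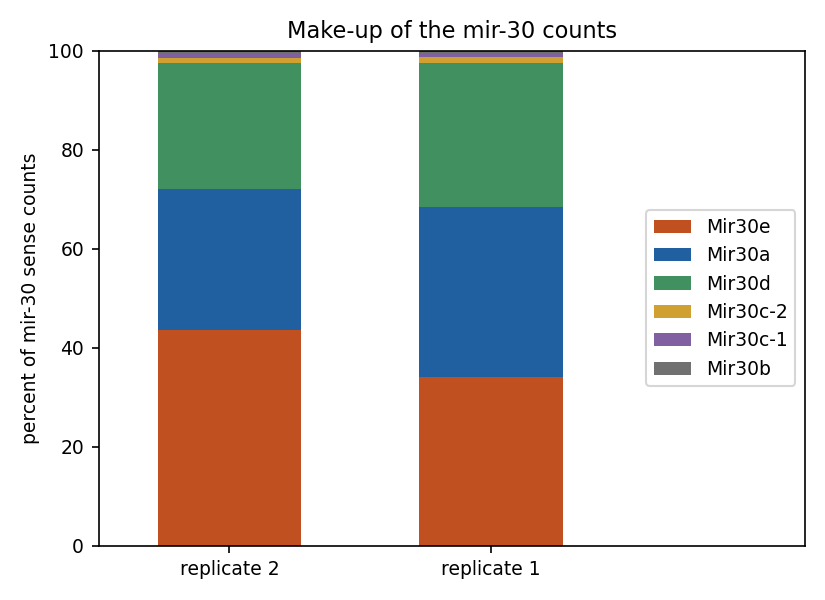
Share of each gene in the summed sense counts of the mir-30 family, in percent, as a stacked bar per library (replicate 2 left, replicate 1 right). Mir30e takes 43.59% in replicate 2 and 34.08% in replicate 1, and the 3 low genes together form a thin band at the top of both bars.

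Within the family, Mir30e made up 43.59% of the counts in replicate 2 (interval 43.30 to 43.88%) and 34.08% in replicate 1 (33.73 to 34.43%). Mir30a made up 28.40% (28.13 to 28.67%) and 34.25% (33.90 to 34.60%), and Mir30d 25.60% (25.34 to 25.86%) and 29.29% (28.95 to 29.62%), in replicates 2 and 1. These shares need no scaling between libraries. The share of Mir30e was higher in replicate 2 and those of Mir30a and Mir30d were lower, each by more than counting error. Mir30c-2, Mir30b and Mir30c-1 each held between 0.68% and 1.02% of the family's assigned counts in either library.

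Among assigned reads, each locus was read almost wholly from 1 of its 2 genes. On chromosomes 4 and 1 the lesser gene is a mir-30c copy, and reads that fit both mir-30c copies enter no gene. The part that this plays in the shares and folds was not tested. The chromosome 4 locus summed to 8633 and 6552 CPM in replicates 2 and 1 (mean 7592 ± 1472 CPM, SD, n = 2), of which Mir30e gave 98.32% (interval 98.20 to 98.43%) and 98.05% (97.87 to 98.22%). The chromosome 1 locus summed to 5722 and 6647 CPM in replicates 2 and 1 (mean 6185 ± 654.5 CPM), with 96.66% (96.45 to 96.85%) and 97.11% (96.89 to 97.31%) from Mir30a. The chromosome 15 locus summed to 5118 and 5650 CPM (mean 5384 ± 376 CPM), with 97.39% (97.20 to 97.57%) and 97.71% (97.50 to 97.90%) from Mir30d. The leading gene exceeded its partner 58.5-fold and 50.4-fold on chromosome 4, 28.9-fold and 33.6-fold on chromosome 1, and 37.4-fold and 42.6-fold on chromosome 15, in replicates 2 and 1.

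A strong imbalance of assigned reads at a paired locus also occurred in the mir-181 and mir-29 families, which lie in pairs as well. By their names, Mir181a, Mir181b and Mir29b have copies at 2 loci each, and reads that fit both copies enter no gene. Mir181c, Mir181d, Mir29a and Mir29c have no such numbered copy. The part that unassigned reads play in these shares was not tested. Mir181a-1 held 97.95% and 99.09% of its locus with Mir181b-1, and Mir181b-2 held 99.42% and 99.04% with Mir181a-2, in replicates 2 and 1. Mir29a held 99.71% and 99.81% with Mir29b-1, and Mir29c held 96.55% and 98.52% with Mir29b-2. The Mir181c and Mir181d locus was the exception among the 8 loci, with 55.01% and 47.47% from Mir181c. Assigned counts of the mir-29 family summed to 23613 and 22067 CPM and those of the mir-181 family to 5617 and 4534 CPM. The mir-30 sum lay between them in both libraries. Each sum lacks the reads that fit several copies, so this is an order of assigned counts, not of tissue levels. With 2 libraries and no contrast, these levels are descriptions and no difference between families was tested.

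**Figure D3:**
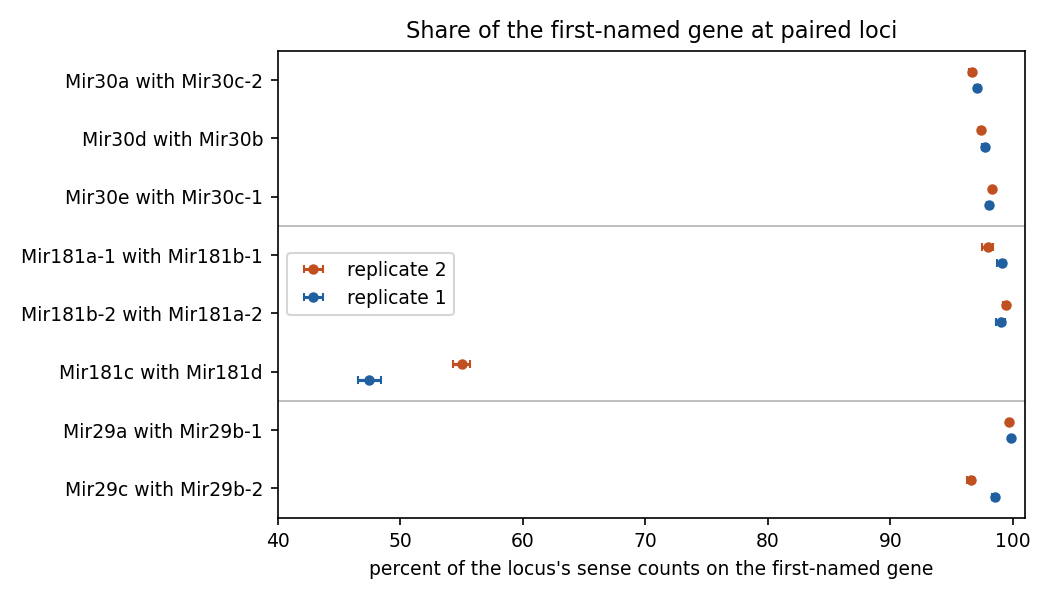
Percent of a locus's sense counts that fell on the first-named gene, for the 3 mir-30 loci (top), 3 mir-181 loci and 2 mir-29 loci, with a point per library (replicate 2 above replicate 1) and 95% Wilson intervals. The axis starts at 40%. All loci lie above 96% except Mir181c with Mir181d, at 55.01% and 47.47%.

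Mir30c-1 on chromosome 4 and Mir30c-2 on chromosome 1 encode the same 5p strand. Their RefSeq hairpins, printed because the shared stretch decides which reads can be assigned to a copy, have 28 consecutive bases in common (capitals):
Mir30c-1: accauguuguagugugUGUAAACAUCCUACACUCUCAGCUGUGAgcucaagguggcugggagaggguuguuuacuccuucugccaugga
Mir30c-2: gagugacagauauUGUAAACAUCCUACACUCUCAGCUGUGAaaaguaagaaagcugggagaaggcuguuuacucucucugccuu
The whole 23-base miR-30c-5p strand lies inside this stretch, so a read of it fits both genes. The tables have a separate line for reads that mapped to several places. The 2 genes together held 1883 and 1201 assigned counts in replicates 2 and 1, or 336 and 320 CPM (mean 328 ± 11.85 CPM, SD, n = 2). The part that unassigned reads play in the low level of both genes was not tested, and their counts are no tissue level of miR-30c.

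Among the reads that were assigned to a mir-30c gene, Mir30c-1 held 43.12% in replicate 2 (interval 40.90 to 45.37%) and 39.88% in replicate 1 (37.15 to 42.68%), with a mean of 41.5% ± 2.29 (SD, n = 2). The intervals of the libraries overlapped, and both lay below an even split. Mir30c-2 exceeded Mir30c-1 by 1.32-fold (1.20 to 1.44) in replicate 2 and 1.51-fold (1.34 to 1.69) in replicate 1. Among the 4 RefSeq hairpins of the family, Mir30a and Mir30e share 18 consecutive bases, and pairs of a mir-30c hairpin with Mir30a or Mir30e share 12.

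Mir30f, annotated on the strand opposite to Mir30e, had no sense count in either library. With 3 counts per library as the limit for a count of 0, its level in replicates 2 and 1 could be as high as 0.536 and 0.798 CPM. Relative to the reads of Mir30e at the same bases, that limit is 0.00631% and 0.0124%. Mir30e was therefore at least 15841-fold higher than Mir30f in replicate 2 and at least 8048-fold higher in replicate 1. The annotated miR-30f strand is the exact reverse complement of 22 bases of the Mir30e hairpin, and 19 of them lie opposite miR-30e-3p. Its first 10 bases equal bases 2 to 11 of miR-30e-5p.

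The opposite-strand column gave Mir30f 47522 counts in replicate 2 and 24144 in replicate 1, the same numbers as the sense counts of Mir30e. The unstranded column gave 0 to both Mir30f and Mir30e. Its line for ambiguous reads held 425131 reads in replicate 2 and 287630 in replicate 1, and the sense counts of Mir30e equalled 11.2% and 8.39% of them. The other 5 mir-30 genes had no opposite-strand count in either library and the same count in the sense and the unstranded columns. The sense column was taken as the stranded column with the larger total, since neither the labels nor the tables name it. Its totals were 5598792 and 3758318 counts in replicates 2 and 1, against 425273 and 287729 in the other column. With the other column these reads would belong to Mir30f, and the other 5 mir-30 genes would have no count.

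**Figure D4:**
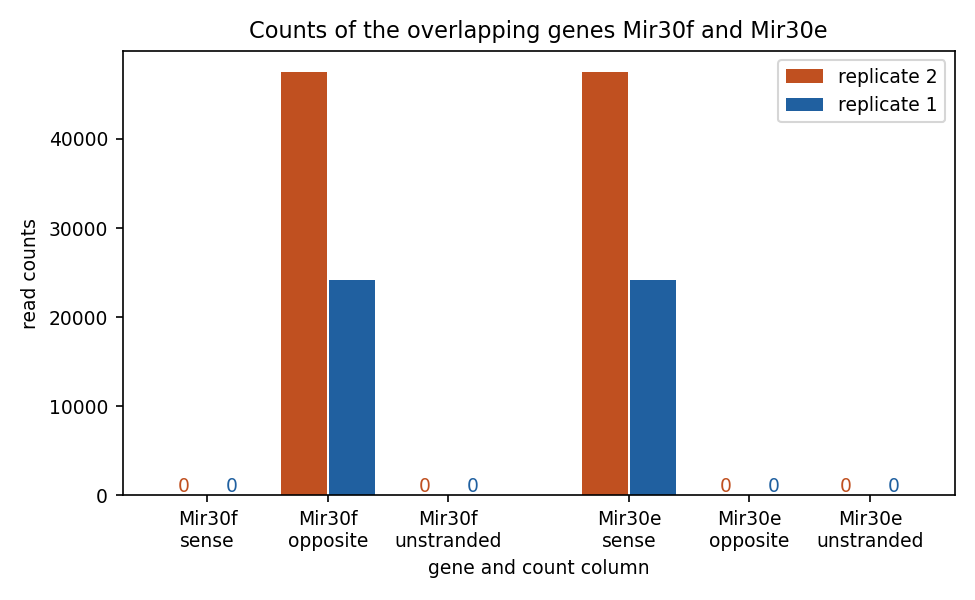
Read counts of Mir30f and Mir30e in the sense, opposite-strand and unstranded columns, with a bar per library (replicate 2 left, replicate 1 right) and 0 printed where no read was counted. The 47522 and 24144 reads appear as sense counts of Mir30e and as opposite-strand counts of Mir30f, and in neither gene without strand.

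The Mir30e and Mir30f pair is 1 of 32 pairs of miRNA genes in the tables that overlap on opposite strands. In 25 of them the higher gene was detected, and by its counts the Mir30e pair ranked 4. The lower gene had 0 sense counts in both libraries in 15 of the 25, Mir30f among them. It had some counts but was not detected in 9, and it was detected in 1, Mir3074-1 opposite Mir24-1, named after its values were seen.

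Most mir-30 genes differed between the libraries beyond counting error, as did most detected miRNA genes. The counts of every detected gene in replicates 2 and 1 were compared by a two-sided exact binomial test, library sizes being scaled by TMM and p-values adjusted by Benjamini-Hochberg over all 384 detected genes, with a threshold of 0.05. The test knows counting error only and compares these libraries, not conditions. It called 65.1% of detected genes, and 5 of the 6 detected mir-30 genes, a share near that background. The median fold between libraries was 1.23 for the 6 genes and 1.36 for all detected genes. The edgeR common dispersion of these libraries gave a coefficient of variation of 34.4%, which may be technical as well as biological. In tissue, fewer cells of a type and less RNA per cell cannot be told apart.

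Mir30a was 1.45-fold higher in replicate 1 on the TMM scale and 1.17-fold higher with total-count scaling, the largest difference of the family on the TMM scale. Its adjusted p was below the smallest number the software holds. Mir30d was 1.38-fold higher in replicate 1 (adjusted p = 1.67e-263, exact binomial test), or 1.11-fold with total counts. Mir30e went the other way, 1.06-fold higher in replicate 2 (adjusted p = 2.10e-13, exact binomial test), or 1.32-fold with total counts. These 3 genes kept their direction and their call with TMM, DESeq2 and total-count scaling. For the 3 low genes the scaling mattered. Mir30c-2 was 1.25-fold higher in replicate 1 on the TMM scale (adjusted p = 8.76e-06, exact binomial test), but did not pass with total counts (adjusted p = 0.952, exact test). Mir30b was 1.21-fold higher in replicate 1 on the TMM scale (adjusted p = 0.00226, exact binomial test) and 1.03-fold higher in replicate 2 with total counts, where it did not pass (adjusted p = 0.684, exact test). Mir30c-1 did not pass on the TMM scale (1.09-fold higher in replicate 1, adjusted p = 0.167, exact binomial test), while with total counts it was 1.14-fold higher in replicate 2 (adjusted p = 0.0363, exact test).

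On the TMM scale 4 mir-30 genes were called higher in replicate 1, where 34.1% of detected genes were called, and 1 higher in replicate 2, where 31.0% were. With total counts, 4 mir-30 genes were called beside 70.6% of detected genes. Of these, 2 were higher in replicate 1 (19.8% of detected genes) and 2 in replicate 2 (50.8%). The scales differ by a factor of 1.25, and the median log2 ratio of replicate 2 to replicate 1 over all detected genes was -0.007 with TMM and 0.309 with total counts. Over the 6 mir-30 genes it was -0.299 and 0.018, below that of all detected genes. A change of scale shifts every log2 ratio by the same amount, so the 2 scales are no separate support for this. By locus, the sum was 1.447-fold higher in replicate 1 on chromosome 1, 1.375-fold higher in replicate 1 on chromosome 15 and 1.058-fold higher in replicate 2 on chromosome 4 (TMM scale), with the same directions in CPM. The family sum was 1.206-fold higher in replicate 1 on the TMM scale and 1.033-fold higher in replicate 2 in CPM.

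**Figure D5:**
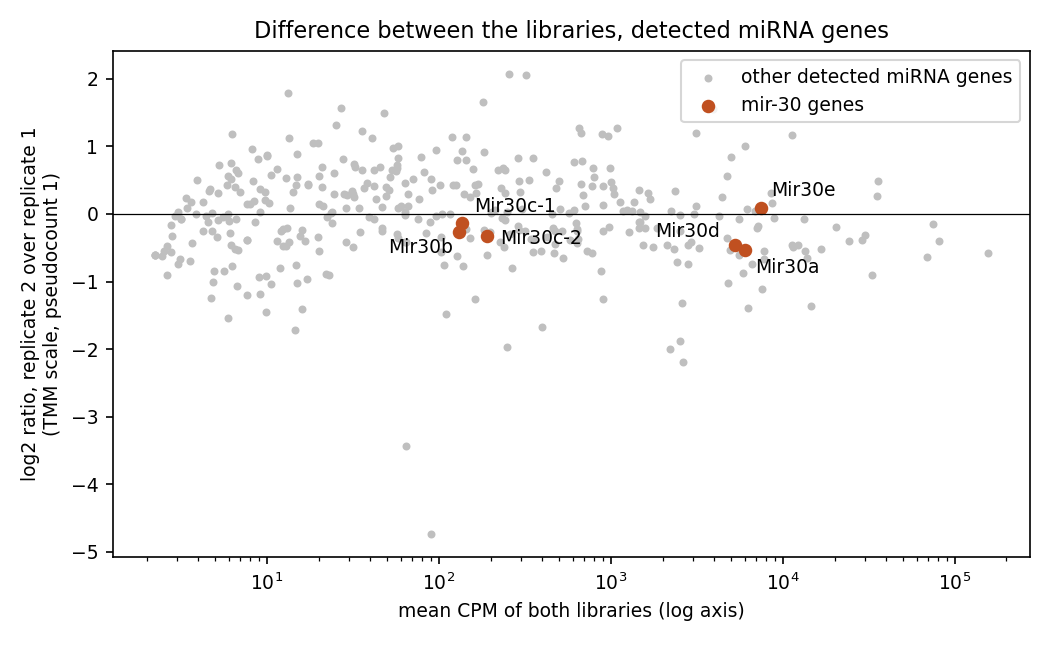
Log2 ratio of replicate 2 to replicate 1 on the TMM scale with a pseudocount of 1 CPM, against mean CPM on a log axis, for all 384 detected miRNA genes (grey) and the 6 detected mir-30 genes (orange). The mir-30 genes lie between -0.54 (Mir30a) and 0.09 (Mir30e), within the spread of the other genes.

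For each detected mir-30 gene the non-member with the closest levels was found, by Euclidean distance of log2(CPM + 1) over the 2 libraries. Closest to Mir30e was Mir770, of the imprinted Dlk1-Dio3 region, with 7724 and 6046 CPM in replicates 2 and 1 (distance 0.162). Closest to Mir30a was Mir361 with 4974 and 6091 CPM (distance 0.175), and closest to Mir30d was Mir335, in the imprinted gene Mest, with 4567 and 5335 CPM (distance 0.135). Mir543 was closest to Mir30c-2 (203 and 196 CPM, distance 0.0891). Mir496a was closest to both Mir30c-1 and Mir30b (149.5 and 140.0 CPM, distances 0.141 and 0.197). With 2 libraries this likeness rests mainly on the level.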

How the data were processed

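The values are raw read counts per miRNA gene as deposited, not normalized. Unmapped reads, reads that mapped to several places, reads on no feature and ambiguous reads have lines of their own, which were kept out of library sizes and tests. Per the file headers and deposited notes, mm10 and annotation M21 were used for counting, while the software for alignment and counting is not given in the sources used here. The tables hold an unstranded, a sense and an opposite-strand column, whose roles were read from the values. GENCODE M21 supplied symbols, positions and hosts for all 2202 identifiers. Mature and hairpin sequences came from RefSeq (GRCm38.p6). The 7 genes, the marker lists and the rule for named genes (the 7 genes, antisense partners, nearest non-members, mir-181 and mir-29 members) were chosen with earlier results of these data known. TMM factors came from detected genes (edgeR 4.0.16), size factors from DESeq2 1.42.0, and tests and intervals from scipy 1.17.1. Alternatives were other count columns, scalings, detection limits, tests and pseudocounts, and each replicate left out. The total-count and DESeq2 scalings of single ratios were added after seeing the data.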

Additional observations from a re-analysis of the deposited data

How the results depend on the processing

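The mean family sum of 19161 CPM was 12670 CPM with the unstranded column, which drops the reads of Mir30e, and 6722 per 1000000 of all reads, whose denominator includes reads outside miRNA genes. The unstranded column gave 147.5 CPM for the Mir30e and Mir30c-1 locus and 5828 CPM for the Mir30d and Mir30b locus. Per 1000000 of all reads, the loci held 2660 (Mir30e), 2172 (Mir30a) and 1890 (Mir30d). Mir30f averaged 35833 counts in the opposite-strand column, against 0 in the sense column. TMM or DESeq2 library sizes and leaving out both mir-30c genes moved the family sum by less than the SD. Leaving out a replicate gave 18849 to 19472 CPM for the family, 5722 to 6647, 5118 to 5650 and 6552 to 8633 CPM for the loci led by Mir30a, Mir30d and Mir30e, and 39.88% to 43.12% for the share of Mir30c-1. With TMM, 5 of 6 mir-30 genes were called, beside 65.1% of all genes tested. The count was also 5 of 6 with DESeq2 size factors (65.1% of genes), no filter (34.8%), at least 50 counts (78.6%), a chi-square test (65.4%) or a threshold of 0.01 (60.4%). It was 4 of 6 with total counts (70.6%) and 4 of 5 with the unstranded column (63.7%), where Mir30e has no counts and could not be tested. With total counts the log2 ratio of replicate 2 to replicate 1 turned to 0.0418 for Mir30b and 0.185 for Mir30c-1. Leaving out a library leaves no ratio to test. No paired analysis was possible because there is 1 group. Depth limits Mir30f, for which up to 3 counts per library cannot be told from 0.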
